A study of Mus musculus with 64 samples.

Results

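Ccl2, Ccl7 and Ccl12 are 3 of the 5647 genes with values in the deposited table of mouse microglia, and they were taken by their gene symbols. Microglia were sorted from the brains, without the cerebellum, of individual C57BL/6J mice as live cells that carried CD11b and little CD45, with 1 library from each mouse. All mice are labelled WT. The 53 PBS-treated mice were 26 females and 27 males. The females were 4 mice of 3 months, 2 of 6, 3 of 9, 4 of 12, 5 of 14, 5 of 16 and 3 of 24 months. The males were 4 mice of 3 months, 4 of 6, 4 of 9, 2 of 12, 4 of 16, 5 of 19 and 4 of 24 months. The 11 mice given lipopolysaccharide (LPS), a component of the wall of Gram-negative bacteria, into the peritoneum were females of 3, 14 and 24 months, with 3, 5 and 3 mice, and the PBS-treated females of these ages were their controls. No male was given LPS.

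Chemokines are small secreted proteins that direct the movement of cells carrying the matching receptor. CCL2, CCL7 and CCL12 are among the monocyte chemoattractant proteins of the mouse. They bind CCR2, the receptor by which inflammatory monocytes leave the bone marrow and enter inflamed tissue. CCL7 also binds CCR1 and other CC receptors. In the brain, activated microglia and astrocytes are known sources of CCL2. LPS is sensed by Toll-like receptor 4 with its helpers CD14 and MD-2, and signals through MyD88 and TRIF to NF-kB, AP-1 and interferon regulatory factors, which switch on chemokine and cytokine genes.

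The genes lie close together on the plus strand of chromosome 11 (GRCm38, GENCODE vM21). Ccl2 spans chr11:82035571-82037453, Ccl7 chr11:82045712-82047525 and Ccl12 chr11:82101845-82103400, each with 3 exons. Between Ccl7 and Ccl12 lies Ccl11 (chr11:82057832-82062955 in RefSeq), and Ccl8 follows Ccl12 (chr11:82115185-82116799). The coding sequences, without the stop codon, hold 444, 291 and 312 bases in Ccl2, Ccl7 and Ccl12. Aligned bases were identical at 72.1% between Ccl2 and Ccl7, 69.7% between Ccl2 and Ccl12 and 69.1% between Ccl7 and Ccl12. The longest run of coding bases that a pair shared was 17 bases, between Ccl2 and Ccl12. The stretches of 100 coding bases in which the members are most alike are shown because they bear on how well reads of the genes can be told apart. Capitals mark the positions at which the letters are not the same in all 3 members, and 60 of the 100 positions are the same. Even so, no pair shared a run of coding bases longer than 17. Whether any sequencing reads were divided between these genes in the authors' estimation was not tested.
Ccl2, coding bases 141 to 240: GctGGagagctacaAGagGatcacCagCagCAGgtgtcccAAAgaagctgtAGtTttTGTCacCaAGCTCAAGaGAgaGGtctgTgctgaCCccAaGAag
Ccl7, coding bases 135 to 234: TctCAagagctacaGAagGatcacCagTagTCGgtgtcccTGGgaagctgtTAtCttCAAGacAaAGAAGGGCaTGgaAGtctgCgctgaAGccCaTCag
Ccl12, coding bases 138 to 237: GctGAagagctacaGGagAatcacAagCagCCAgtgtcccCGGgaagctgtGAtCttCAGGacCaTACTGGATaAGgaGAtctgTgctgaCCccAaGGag

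Of the 3 members, 1 was matched in the RefSeq promoter table (GRCm38.p6). The 250 bases before the start of Ccl12, chr11:82101595-82101844 on the plus strand, are shown because this member had the largest fold of the 3 after LPS at 3 and 14 months. Capitals mark the only match of the motifs searched, a TATA box.
Ccl12 promoter: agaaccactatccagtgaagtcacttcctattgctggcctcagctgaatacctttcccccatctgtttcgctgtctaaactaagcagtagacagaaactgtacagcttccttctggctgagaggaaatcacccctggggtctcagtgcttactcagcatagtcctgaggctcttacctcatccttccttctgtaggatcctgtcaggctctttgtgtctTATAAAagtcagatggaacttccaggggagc
The TATA box, TATAAA, began at position -31 from the annotated start. Over the same window of 32851 promoters, 12.4% held TATAAA on either strand. On neither strand did the Ccl12 window hold the NF-kB consensus (in 3.9% of promoters), the AP-1 motif TGANTCA (6.75%), the C/EBP motif TTNNGNAA (36.8%), the ISRE core, which is GAAA, any 2 bases and GAAA (2.98%), or the GC box GGGCGG (32.7%). These are matches of letters in this window and are no measure of binding.

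The values are FPKM, which count fragments relative to transcript length and library size, after an adjustment for batches by the authors, and are here called adjusted FPKM. Their sum per library ran from 408457 to 554459. The depth in reads is unknown. All 10 microglia markers looked up were measured, and their summed values lay between 14584 and 26494 in every library. All 13 neutrophil markers were also measured, with sums from 495 to 32186, as were 7 of 12 monocyte markers, with sums from 114 to 1433, and all 11 markers of macrophages at the borders of the brain, with sums from 271 to 942. No measured marker was at 0 throughout a group. In 21 libraries (all females of 16 months, all males of 12, 16 and 24 months, 4 of 5 males of 19 months and 2 of 4 males of 3 months) the table held no value between 0 and 1. The labels name no batch for this split. In bulk libraries a change in the number of cells of a type cannot be told apart from a change in RNA per cell.

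Per length and over all 64 libraries, Ccl12 was the most abundant of the 3, with a mean of 490 adjusted FPKM and place 98 among the 5647 genes from the highest. Ccl7 had a mean of 172 and place 385, and Ccl2 a mean of 163 and place 413. The order of these 2 depended on the group. In PBS-treated females of 3, 12, 14, 16 and 24 months the mean of Ccl2 was above that of Ccl7. The same order held in males of 9, 12, 16 and 24 months and in LPS-treated females of 14 months. All 3 thus lay among the 413 most abundant genes of the table.

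LPS was compared with PBS in females of each age to ask how far the chemokine genes respond, and whether the response changes with age. The brains were taken early after LPS, and the paper cautions that microglial reactivity might not have peaked by then. The folds are those of this time alone. At 3 months all 3 rose, Ccl12 by 6.81-fold, Ccl7 by 5.21-fold and Ccl2 by 2.57-fold on the scale of value + 1. At 14 months none of the 3 passed the threshold, and at 24 months Ccl7 alone passed it. A gene passed with an adjusted p under 0.05 (limma, Benjamini-Hochberg over all 5647 genes) and a fold over 1.5.

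At 3 months the adjusted FPKM of Ccl2 were 82, 67, 119 and 88 in the 4 PBS-treated mice and 193, 251 and 237 in the 3 LPS-treated mice. The lowest LPS-treated mouse lay above the highest control. Such lack of overlap is a description here and below, and the share of all genes that showed it was not counted. The log2 fold change of Ccl2 was 1.36 (SE 0.27, adjusted p = 0.0013). Ccl7 was 60, 45, 90 and 68 after PBS and 332, 406 and 283 after LPS, again with no overlap. Its log2 fold change was 2.38 (SE 0.37, adjusted p = 0.000113), which was place 15 from the highest of all genes. Ccl12 was 95, 86, 130 and 113 after PBS and 540, 893 and 769 after LPS. The groups were far apart, and the log2 fold change of 2.77 (SE 0.61, adjusted p = 0.0038) was place 8 of all genes. At this age 635 genes passed (11.2% of those tested), 348 higher and 287 lower, and the median log2 fold change of all genes was −0.14. With median-ratio scaling the split was 441 higher and 145 lower. The calls of all 3 members held under each of the 18 alternatives tried for each, with log2 fold changes of 1.24 to 1.51 for Ccl2, 2.22 to 2.55 for Ccl7 and 2.61 to 2.97 for Ccl12. The neutrophil markers summed to 7057 to 18677 in the controls and 2174 to 3764 after LPS, with 9 of 13 lower. The monocyte markers summed to 320 to 715 and 330 to 508, with 2 of 7 measured higher and 1 lower, and the microglia markers to 24857 to 26494 and 18203 to 21804, with 4 of 10 lower. Their part in the chemokine values was not tested.

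**Figure D1:**
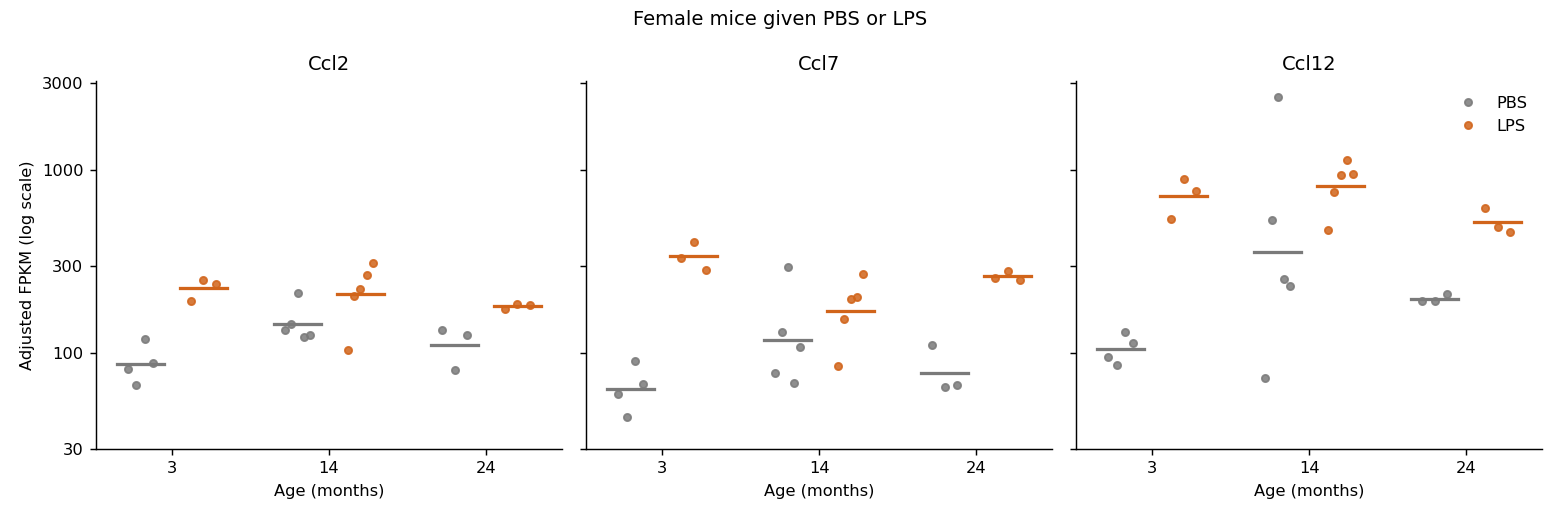
Adjusted FPKM (log scale) of Ccl2, Ccl7 and Ccl12 in females of 3, 14 and 24 months given PBS (grey) or LPS (orange), 1 point per mouse, with a bar at the geometric mean of each group. At 3 months every LPS-treated mouse lies above every control for all 3 genes, and at 14 months 1 control reaches 2500 for Ccl12.

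At 14 months Ccl2 was 134, 144, 214, 123 and 125 in the 5 controls and 104, 206, 223, 268 and 311 in the 5 LPS-treated mice. The ranges overlapped, since 1 LPS-treated mouse lay below all controls. Ccl7 was 78, 131, 294, 69 and 108 after PBS and 85, 153, 197, 203 and 271 after LPS, and the ranges overlapped, with the control at 294 above all LPS-treated mice and the LPS-treated mouse at 85 below 3 of the 5 controls. Ccl12 was 73, 532, 2500, 253 and 232 after PBS and 469, 761, 942, 1128 and 951 after LPS. The control at 2500 was the highest Ccl12 value of all 64 libraries and lay above every LPS-treated mouse. The log2 fold changes were 0.53 (95% confidence interval 0.07 to 0.99, adjusted p = 0.237) for Ccl2, 0.53 (−0.10 to 1.15, adjusted p = 0.432) for Ccl7 and 1.19 (0.15 to 2.24, adjusted p = 0.243) for Ccl12. At this age 102 genes passed (1.81%), and the median of all genes was 0.02. Without that control (14-month PBS replicate 3) Ccl12 rose by 1.89 (adjusted p = 0.00293), and without the lowest LPS-treated mouse (14-month LPS replicate 1) Ccl2 rose by 0.78 (adjusted p = 0.0243).

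At 24 months Ccl2 was 134, 81 and 125 after PBS and 175, 185 and 184 after LPS. Ccl7 was 110, 65 and 67 after PBS and 257, 281 and 250 after LPS. Ccl12 was 192, 193 and 210 after PBS and 620, 486 and 458 after LPS. For each of the 3 the LPS-treated mice lay above the controls without overlap, as they did at 3 months. How many of all genes did so was not counted, and the lack of overlap is given as a description. Ccl7 rose by 1.73 on the log2 scale (SE 0.39, adjusted p = 0.0092), and this call held under all 17 alternatives. Ccl2 differed by 0.71 (0.11 to 1.30, adjusted p = 0.108) and Ccl12 by 1.38 (0.03 to 2.73, adjusted p = 0.168), and neither passed. At this age 548 genes passed (9.7%), 241 higher and 307 lower, and with libraries scaled to equal totals the split was 416 higher and 106 lower. Ccl2 passed with that scaling, at 0.87 (adjusted p = 0.0384), and Ccl12 passed when only the groups of 24 months were fitted, at 1.38 (adjusted p = 0.00327), where the spread of the 14-month mice does not enter. The neutrophil markers summed to 3269 to 8562 after PBS and 4058 to 16081 after LPS.

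The difference of the responses between ages was tested directly. The response of Ccl7 at 14 months minus that at 3 months was −1.86 on the log2 scale (−2.84 to −0.87), which was place 5640 of 5647 from the highest, but did not pass (adjusted p = 0.104). It passed with the filter at a mean of 50 (adjusted p = 0.0495) and with libraries scaled to equal totals (−2.01, adjusted p = 0.0341). For Ccl12 the difference was −1.58 (−3.22 to 0.06, adjusted p = 0.509), which was −2.14 without the 14-month PBS replicate 1 and −0.87 without replicate 3, and for Ccl2 −0.84 (−1.55 to −0.12, adjusted p = 0.386). In this contrast 17 genes passed (0.301%). Between 24 and 3 months the differences were −0.65 (−1.76 to 0.46) for Ccl7, −1.39 (−3.24 to 0.46) for Ccl12 and −0.66 (−1.47 to 0.15) for Ccl2. No gene passed there in the limma fit (0.0% of genes). With an unadjusted p under 0.05 and a fold over 1.5 there were 576 genes, and none of the 3 was among them. Between 24 and 14 months Ccl7 differed by 1.21 (0.18 to 2.23, adjusted p = 0.199), with 67 genes passing (1.19%). Ccl12 differed by 0.19 (−1.52 to 1.89) and Ccl2 by 0.18 (−0.57 to 0.93). With single mice left out the value of Ccl12 ran from −0.51 to 0.75 and that of Ccl2 from −0.071 to 0.32. These contrasts share their groups with the comparisons above.

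The levels reached after LPS were also compared between ages. The 3, 5 and 3 LPS-treated mice of 3, 14 and 24 months had a mean ± SD of Ccl12 of 734 ± 179, 850 ± 250 and 521 ± 86.6. Ccl7 averaged 340 ± 61.9, 182 ± 68.6 and 263 ± 16.3, and Ccl2 227 ± 30.3, 222 ± 77.8 and 181 ± 5.51. None of the 3 passed against 3 months. The lowest p was that of Ccl7 at 14 months, whose log2 difference was −0.98 (−1.71 to −0.26, adjusted p = 0.296). Few genes passed in these contrasts, 4 at 14 months (0.0708%) and 2 at 24 months (0.0354%).

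**Figure D2:**
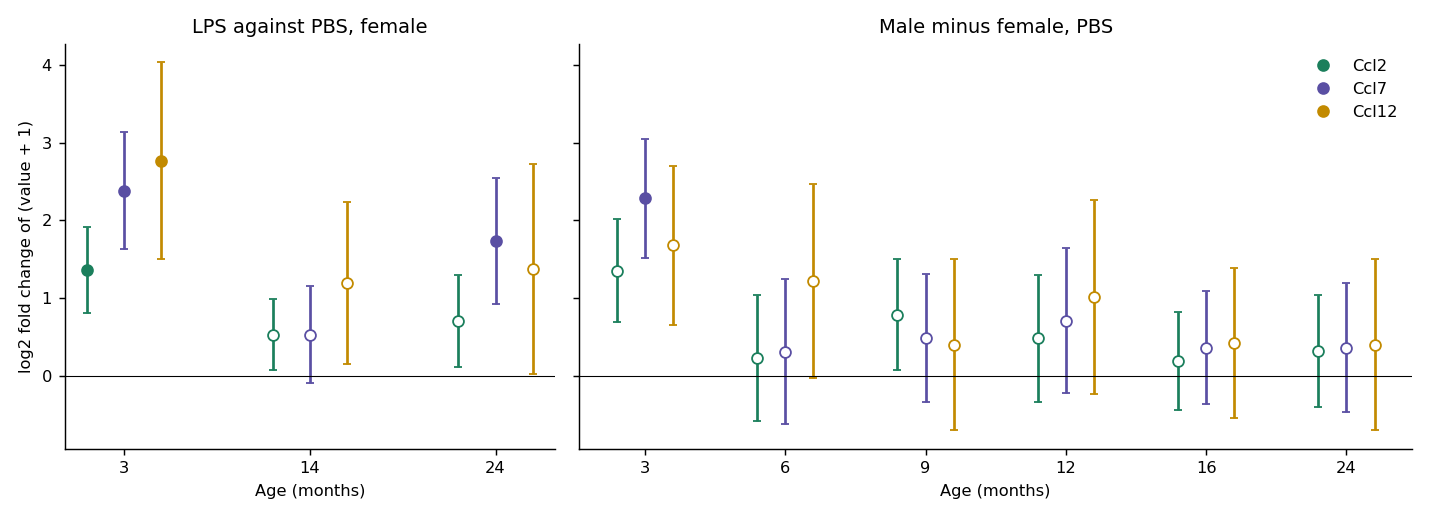
Log2 fold change of value + 1 (y axis) with its 95% confidence interval, for LPS against PBS in females (left) and for males minus females given PBS (right), by age in months, with filled points where the gene passed the threshold. The LPS changes lie between 1.36 and 2.77 at 3 months and between 0.53 and 1.19 at 14 months, and the sex difference that passes is that of Ccl7 at 3 months, at 2.28.

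In PBS-treated females the 7 ages were compared to describe the genes during ageing without LPS. Ccl2 and Ccl7 differed between the ages (F-test over 7 ages in limma, adjusted p = 0.0134 and 0.008), both highest at 6 months, and Ccl12 did not pass (adjusted p = 0.107). In this F-test 836 genes passed (14.8%). None of the 3 passed between 24 and 3 months. The females of 3, 14 and 24 months are the controls of the LPS comparisons.

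In females Ccl2 was 148 and 289 at 6 months, 109, 90 and 69 at 9 months, and 92, 88, 120 and 60 at 12 months. It was 163, 112, 109, 124 and 104 at 16 months, beside the values at 3, 14 and 24 months given above. Both mice of 6 months lay above every mouse of 3, 9 and 12 months. The means fell in the order of 6 months (219 ± 99.7, SD, n = 2), 14 months (148 ± 37.8, n = 5), 16 months (122 ± 23.9, n = 5), 24 months (113 ± 28.4, n = 3), 12 months (90.0 ± 24.6, n = 4), 9 months (89.3 ± 20, n = 3) and 3 months (89.0 ± 21.9, n = 4). Each neighbour in that order differed from the next by less than the larger of their SDs.

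Ccl7 in females was 228 and 254 at 6 months, 68, 122 and 100 at 9 months, and 44, 83, 73 and 45 at 12 months. At 16 months it was 124, 88, 87, 89 and 90. Both 6-month mice lay above all other PBS-treated females except 1 of 14 months, at 294. Against 3 months Ccl7 was higher at 6 months by 1.90 on the log2 scale (SE 0.39, adjusted p = 0.0219), place 10 of all genes, in a contrast with 17 genes passing (0.301%) and a median over all genes of −0.16. This rests on 2 mice, and without either of them the adjusted p was 0.189 or 0.277 and the change 1.98 or 1.82. The call was also lost without the 3-month replicate 1 (adjusted p = 0.068) or 2 (adjusted p = 0.108), and with the replicate block by the number in the description (adjusted p = 0.0858). The difference of Ccl2 at 6 months was 1.24 (SE 0.29, adjusted p = 0.0603) and did not pass. It passed in 7 of 17 alternatives, among them a minimum mean of 50 (adjusted p = 0.0311), equal totals (0.0175), median-ratio scaling (0.0219) and a fit of these groups alone (0.0116), and without the 3-month replicate 3 (0.0492) or the 6-month replicate 1 (0.0464). The immediate early and stress genes, which respond to cell preparation, summed to 10155 and 10436 in the 6-month mice and 5870 to 6824 at 3 months, with 1 of 13 higher, and their part was not tested.

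Ccl12 in females was 333 and 216 at 6 months, 117, 97 and 343 at 9 months, and 130, 594, 63 and 102 at 12 months. At 16 months it was 300, 298, 581, 578 and 650. All 5 mice of 16 months lay above all 4 of 3 months, whereas at 9, 12 and 14 months single mice lay far above the rest of their group. The share of all genes that separated so was not counted. Ccl12 was higher at 16 than at 3 months by 2.11 (SE 0.64, adjusted p = 0.032), place 14 of all genes, in a contrast with 509 genes passing (9.01%). The call was lost in 9 of 20 alternatives, among them robust moderation (adjusted p = 0.069). It was also lost without any single mouse of 3 months (adjusted p of 0.055 to 0.0849) and without the 16-month replicate 3, 4 or 5 (0.0617 to 0.0673), while the change stayed between 1.97 and 2.27. Between these ages 3 of 7 measured monocyte markers were higher, with sums of 320 to 715 at 3 and 332 to 1171 at 16 months. Of the microglia markers 6 of 10 were lower, with sums of 24857 to 26494 and 15493 to 21124, and of the border macrophage markers 3 of 11, with sums of 639 to 755 and 405 to 586. Their part was not tested. The 16-month females are libraries without values between 0 and 1 and the 3-month females are not, so that age and this split cannot be told apart there. At 24 months the log2 differences from 3 months were 0.34 (−0.18 to 0.87) for Ccl2, 0.29 (−0.41 to 0.99) for Ccl7 and 0.91 (−0.58 to 2.40) for Ccl12, with 118 genes passing (2.09%). For Ccl12 the 3 mice of 24 months lay above all 4 of 3 months, and it passed when only those groups were fitted (adjusted p = 0.00323).

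**Figure D3:**
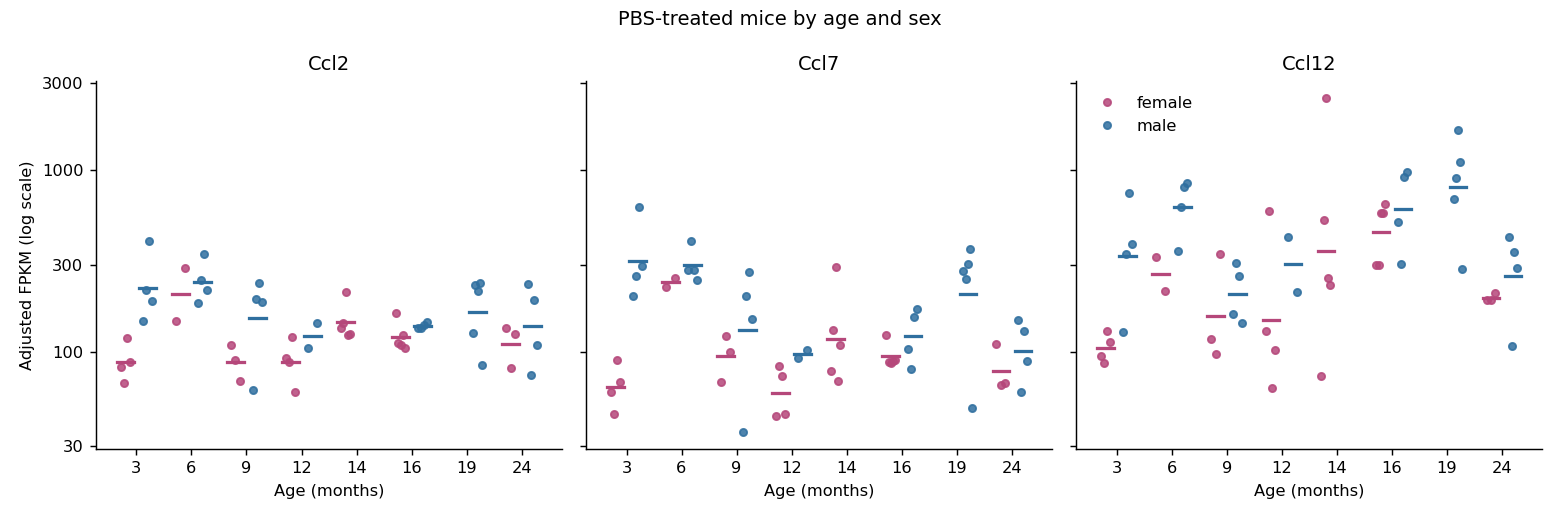
Adjusted FPKM (log scale) of Ccl2, Ccl7 and Ccl12 by age in months in PBS-treated females and males, 1 point per mouse, with a bar at the geometric mean of each group. At 3 months the males lie above the females for Ccl2 and Ccl7, and the highest value of all is a 14-month female at 2500 for Ccl12.

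In PBS-treated males Ccl12 differed between the ages (F-test over 7 ages in limma, adjusted p = 0.0317), and Ccl7 (adjusted p = 0.0751) and Ccl2 (adjusted p = 0.366) did not pass. In this F-test 472 genes passed (8.36%). The lowest mean of Ccl12 was at 9 months and the highest at 19 months.

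Ccl12 in males was 128, 344, 746 and 393 at 3 months, 357, 628, 803 and 849 at 6 months, and 161, 308, 262 and 144 at 9 months. It was 430 and 213 at 12 months, 519, 302, 913 and 972 at 16 months, 692, 901, 1668, 1112 and 286 at 19 months, and 426, 107, 355 and 289 at 24 months. All groups spread widely, the 3-month group over a range of 128 to 746, and neighbouring ages overlapped except 6 and 9 months. The means fell in the order of 19 months (932 ± 512, SD, n = 5), 16 months (677 ± 321, n = 4), 6 months (659 ± 223, n = 4), 3 months (403 ± 256, n = 4), 12 months (322 ± 153, n = 2), 24 months (294 ± 137, n = 4) and 9 months (219 ± 79.1, n = 4). Neighbours in that order differed by less than the larger of their SDs, except those of 6 and 3 months, whose means differed by about that SD. Ccl12 was higher at 16 than at 9 months by 1.55 (SE 0.51, adjusted p = 0.0363), a contrast with 736 genes passing (13%). The same contrast was −0.12 for Ccl7 and −0.14 for Ccl2. The Ccl12 call was lost in 6 of 19 alternatives, with robust moderation (adjusted p = 0.0609) and without the 9-month replicate 1 or 4 or the 16-month replicate 1, 3 or 4 (adjusted p of 0.0557 to 0.119), with values from 1.33 to 1.63 in these 6. All 9-month males have values between 0 and 1 and no 16-month male has, so that age and this split cannot be told apart. Of 13 neutrophil markers 11 were higher at 16 than at 9 months, with sums of 9249 to 32186 against 1380 to 1929, and 6 of 7 measured monocyte markers, with sums of 553 to 1433 against 151 to 215. Their part was not tested.

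Ccl7 in males was 202, 260, 623 and 297 at 3 months, 280, 404, 283 and 249 at 6 months, and 36, 203, 273 and 152 at 9 months. It was 92 and 102 at 12 months, 103, 80, 155 and 172 at 16 months, 276, 250, 304, 365 and 49 at 19 months, and 149, 60, 130 and 89 at 24 months. All mice of 12, 16 and 24 months lay below all mice of 3 and 6 months, and 4 of 5 mice of 19 months lay within the range of the young males. The share of all genes that separated so was not counted. All males of 12, 16 and 24 months are libraries without values between 0 and 1, and no 6-month male is. Age and this split cannot be told apart between those groups. Of the 3-month males, those at 202 and 260 are without such values, and those at 623 and 297 hold them. The log2 difference between 24 and 3 months was −1.63 (−2.68 to −0.57, adjusted p = 0.0954), the second lowest of all genes at place 5646, and did not pass. It passed when only these groups were fitted (adjusted p = 0.0213). In the 24 against 3 months contrast 161 genes passed (2.85%), 154 higher and 7 lower. Ccl2 differed by −0.69 (−1.47 to 0.10) and Ccl12 by −0.37 (−1.40 to 0.67), which turned to 0.062 without the 24-month replicate 2 and to 0.016 without the 3-month replicate 3.

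Ccl2 in males was 148, 219, 407 and 190 at 3 months, 186, 248, 345 and 219 at 6 months, and 61, 195, 239 and 188 at 9 months. It was 104 and 144 at 12 months, 134, 134, 140 and 146 at 16 months, 126, 232, 215, 238 and 84 at 19 months, and 235, 74, 193 and 109 at 24 months. The 4 mice of 16 months were nearly equal and lay below every mouse of 3 months. The means lay between 124 ± 28.3 (SD, n = 2) at 12 months and 250 ± 68.5 (n = 4) at 6 months, and no age differed from 3 months past the threshold. Of all 5647 genes 0, 2, 51, 355, 172 and 161 passed against 3 months at 6, 9, 12, 16, 19 and 24 months.

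The sexes were compared at each of the 6 shared ages. At 3 months the differences of all 3 were positive in males, with Ccl7 4.86-fold, Ccl12 3.20-fold and Ccl2 2.55-fold higher on the scale of value + 1, and Ccl7 passed. Its difference of 2.28 (SE 0.38, adjusted p = 0.00262) was the highest of all 5647 genes, Ccl12 (1.68, SE 0.50, adjusted p = 0.116) took place 2 and Ccl2 (1.35, SE 0.33, adjusted p = 0.063) place 5. The 4 males lay above the 4 females without overlap for Ccl7 and Ccl2, and 1 male, at 128, lay among the females for Ccl12. The share of all genes without overlap was not counted. In this contrast 13 genes passed (0.23%), 3 higher in males and 10 lower, and the median over all genes was −0.15. The Ccl7 call held under all 19 alternatives, with values from 1.95 to 2.49, and Ccl2 passed with median-ratio scaling (1.51, adjusted p = 0.0271). The 2 males with values between 0 and 1, like the females, had 623 and 297 for Ccl7, and the 2 without had 202 and 260, all above the highest female at 90. The neutrophil markers summed to 2844 to 4728 in these males and 7057 to 18677 in the females, with 1 of 13 lower past the threshold, and their part was not tested.

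At 6, 9, 12, 16 and 24 months none of the 3 passed between the sexes. Few genes did, with 9, 70, 0, 14 and 5 of all 5647 passing at these ages. The differences were positive at each of these ages for each gene, from 0.20 for Ccl2 at 16 months to 1.22 for Ccl12 at 6 months. They turned negative for Ccl2 at 6 months without the female replicate 1 (−0.25), and for Ccl12 (−0.33) and Ccl7 (−0.06) at 9 months with the replicate block by the number in the description. At 24 months they were 0.32 (−0.40 to 1.04) for Ccl2, 0.36 (−0.46 to 1.19) for Ccl7 and 0.40 (−0.70 to 1.50) for Ccl12. The difference of the sexes in the change from 3 to 24 months was −1.92 (−3.04 to −0.80, adjusted p = 0.395) for Ccl7, at place 5646 of all genes. It was −1.03 (−2.01 to −0.06, adjusted p = 0.55) for Ccl2 and −1.28 (−2.78 to 0.22, adjusted p = 0.665) for Ccl12. In this test 1 gene passed (0.0177%), and it was none of the 3.

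Relations with age were computed over all PBS-treated mice of a sex, 6 relations in all, with 100000 permutations each. Ccl7 in males had a Pearson's r of −0.44 (permutation p = 0.0235, adjusted p = 0.141) and a Spearman's rho of −0.45 (permutation p = 0.0185, adjusted p = 0.0919, n = 27), and did not pass after adjustment. Without 2 of the males farthest from the median age, those of 24 months, r lay between −0.45 and −0.34 by the choice of mice. Within the 16 males without values between 0 and 1 it was −0.28, and within the 11 with such values −0.27. Ccl2 in males had an r of −0.37 (permutation p = 0.0566, adjusted p = 0.17) and a rho of −0.35 (permutation p = 0.0709, adjusted p = 0.142), with −0.10 and −0.51 within the same sets of 16 and 11 males, and −0.50 to −0.24 without 2 males of 24 months. Ccl12 in females had an r of 0.32 (permutation p = 0.108, adjusted p = 0.216) and a rho of 0.43 (permutation p = 0.0306, adjusted p = 0.0919, n = 26). Its r was 0.42 to 0.43 without 2 females of 24 months and 0.24 within the 21 females with values between 0 and 1, and the other 5 females were all of 16 months. The other relations, of Ccl2 (0.14) and Ccl7 (−0.02) in females and of Ccl12 (0.09) in males, had adjusted permutation p of 0.746, 0.935 and 0.766, and rho of 0.30, 0.10 and 0.08, with adjusted permutation p of 0.203, 0.692 and 0.692.

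Whether mice of 1 age that were high in 1 chemokine were also high in the others was asked with the group means removed, over 3 pairs in each sex. Such values of a mouse come from 1 library. In males all pairs moved together. Ccl2 and Ccl7 had an r of 0.85 (adjusted permutation p = 6e-05, the smallest that 100000 permutations over 6 relations can give, n = 27) and a rho of 0.80. Ccl7 and Ccl12 had an r of 0.71 (adjusted permutation p = 0.00015) and a rho of 0.73 (0.00015), and Ccl2 and Ccl12 an r of 0.69 (0.00018) and a rho of 0.66 (0.00046). Without the 2 farthest mice the 3 values of r were 0.77, 0.73 and 0.67. In females Ccl2 and Ccl7 had an r of 0.60 (adjusted permutation p = 0.00138, n = 26) and a rho of 0.53 (0.00841), and 0.48 without the 2 farthest mice. Ccl7 and Ccl12 had an r of 0.61 (adjusted permutation p = 0.00194) but a rho of 0.39 (0.0565), and r was 0.38 without the 2 farthest mice, so that the relation rests in part on them. Ccl2 and Ccl12 had an r of 0.12 (adjusted permutation p = 0.571) and a rho of −0.03 (0.896) in females, and r was −0.18 without the 2 farthest mice.

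Ccl12 and Ccl7 were also set against each other within each library, where a factor common to both genes cancels. A factor that acts on only 1 of them, such as an adjustment made gene by gene, does not cancel. This ratio was chosen after the values were seen and is given as a description without a test. In females it was 1.44 to 1.91 at 3 months, 2.42 to 7.22 at 16 months and 1.75 to 3.13 at 24 months. In males it was 0.634 to 1.32 at 3 months, 3.77 to 5.89 at 16 months, 2.51 to 5.84 at 19 months and 1.78 to 3.25 at 24 months. Every male of 16, 19 and 24 months and every female of 16 months thus held more Ccl12 per Ccl7 than every 3-month mouse of its sex. The share of gene pairs that separated so was not counted. The 16-month females are libraries without values between 0 and 1 and the 3-month females are not. Age and this split cannot be told apart there. All males of 16 and 24 months and 4 of 5 of 19 months are also without such values. At 9 months the ratio ranged from 0.795 to 3.43 in females and 0.947 to 4.47 in males, and at 12 months from 0.863 to 7.16 in females. The geometric mean ratio at 16 months was 2.92 times that at 3 months in females and 4.64 times in males, and at 24 months it was 1.54 and 2.40 times. After LPS the ratio was 1.63 to 2.72 at 3 months, 3.51 to 5.56 at 14 months and 1.73 to 2.41 at 24 months. All 5 LPS-treated mice of 14 months lay above the other 6 LPS-treated mice. The PBS-treated females of 14 months ran from 0.936 to 8.50, with a median of 3.67, and so reached below and above the LPS-treated mice of that age. The males of 3 months with and without values between 0 and 1 had ratios of 1.2 to 1.32 and 0.634 to 1.32, and the 1 male of 19 months with such values had 2.51.

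**Figure D4:**
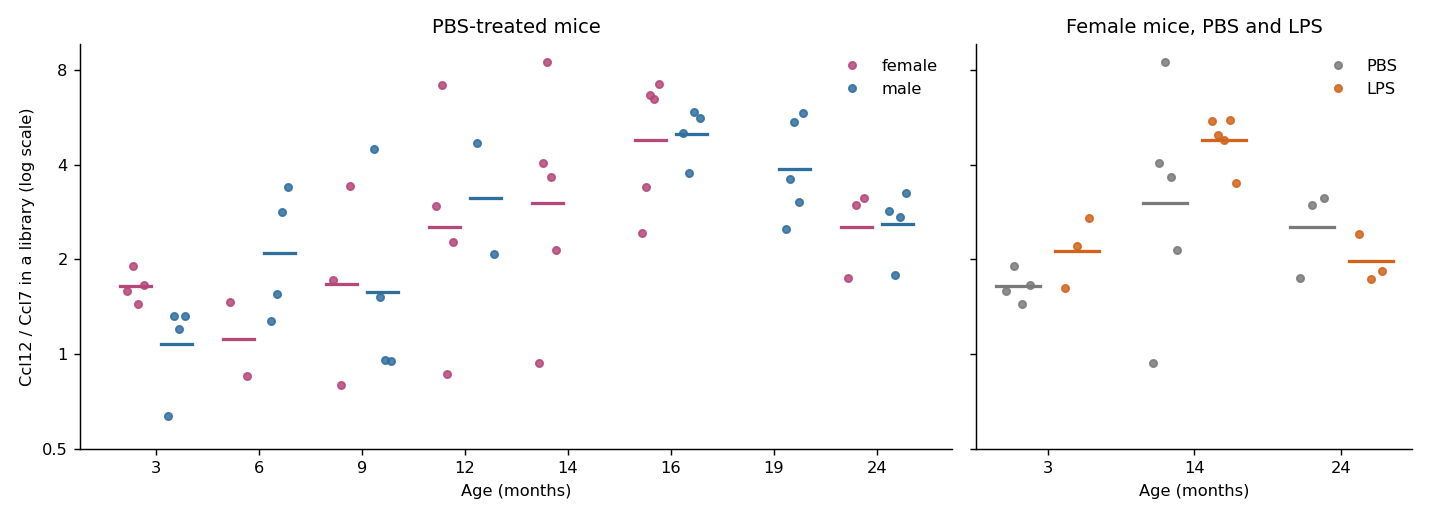
Ratio of Ccl12 to Ccl7 in each library (log scale) by age in months, for PBS-treated females and males (left) and for females given PBS or LPS (right), 1 point per mouse, with a bar at the geometric mean. The ratio lies between 0.634 and 1.91 in all mice of 3 months given PBS and between 2.42 and 7.22 in all mice of 16 months.

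Ccr2 and Ccr1, receptors of these ligands, were measured at lower levels per length. Ccr2, which binds all 3, averaged 37.0 ± 6.06 (SD, n = 4) in 3-month females given PBS and 16.3 ± 3.06 (n = 3) after LPS. It fell by 1.13 on the log2 scale at 3 months (SE 0.29, adjusted p = 0.0109), at the age at which all 3 ligands rose. At 24 months the change was −0.94 (adjusted p = 0.0514) and at 14 months −0.29 (adjusted p = 0.6), and neither passed. Ccr1, a receptor of CCL7 among others, rose after LPS at all 3 ages, by 0.92 (adjusted p = 0.0271), 0.87 (adjusted p = 0.0378) and 1.11 (adjusted p = 0.019) at 3, 14 and 24 months. Between 24 and 3 months Ccr2 rose in males by 1.01 (adjusted p = 0.0456), from 19.3 ± 6.6 (n = 4) to 41.0 ± 18.9 (n = 4), and was 0.27 in females (adjusted p = 0.73). Ccr2 is also a monocyte marker, and in the same males 4 of 7 measured monocyte markers and 7 of 13 neutrophil markers were higher.

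Of 51 other chemokine ligands and receptors looked up, 19 were measured. After LPS at 3 months 9 of them were higher and 3 lower, and their median log2 fold change was 0.92 beside −0.14 for all genes. Among the CC ligands Ccl5 rose by 3.11, Ccl4 by 2.43 and Ccl3 by 2.05, ligands that attract T cells and monocytes. Ccl9 rose by 0.92, and Ccl8, the neighbour of Ccl12, had a value of 1.44 that did not pass. Of the CXC ligands Cxcl10, an interferon-induced attractant of T cells, rose by 3.21, Cxcl2, an attractant of neutrophils, by 2.33, and Cxcl16 by 0.93. Of the receptors Ccrl2, which binds chemerin, rose by 1.52, and Cxcr2 (1.59), Ccr2 (1.13) and Cx3cr1 (0.93), the microglial receptor of fractalkine, had negative log2 changes of the sizes in brackets that passed.

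At 14 months 4 of the 19 were higher and none lower, with a median of 0.27 beside 0.02, among them Cxcl10 (1.41), Cxcl2 (1.02) and Ccr1. None of the 7 other CC ligands passed at that age, and none of the 3 members did, where 1.81% of all genes passed. Ccl5 responded less at 14 than at 3 months by 2.91 (adjusted p = 0.00391) and Cxcl2 by 1.31 (adjusted p = 0.0471), the 2 of the 19 that passed this difference. At 24 months 4 were higher, Cxcl2 (2.50), Cxcl10 (2.19), Ccr1 and Ccl9 (0.85), and 1 was lower, Cxcr6, a receptor of T cells, at −3.29, with a median of −0.07 beside −0.15. In ageing between 3 and 24 months 6 of the 19 were higher in females and 10 in males, and none lower, with medians of 0.51 beside −0.02 and 1.31 beside 0.10. Cxcl13, an attractant of B cells, rose by 4.23 in females and 3.60 in males, and Ccl5 by 1.86 and 2.32. Ccl8 (2.17) and Cxcr6 (2.44) rose in females, and Ccl3 (1.62), Ccl4 (2.01), Cxcl10 (2.91) and Cxcr6 (2.64) in males. None of Ccl2, Ccl7 and Ccl12 passed in either sex, where 2.09% of all genes passed in females and 2.85% in males. Ccl7 in males, at −1.63, was nonetheless at place 5646 from the highest. Of 3 measured T and NK cell markers, all 3 rose in both sexes, with sums of 24 to 36 at 3 and 183 to 285 at 24 months in females and 16 to 31 and 88 to 165 in males, and their part in these values was not tested.

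**Figure D5:**
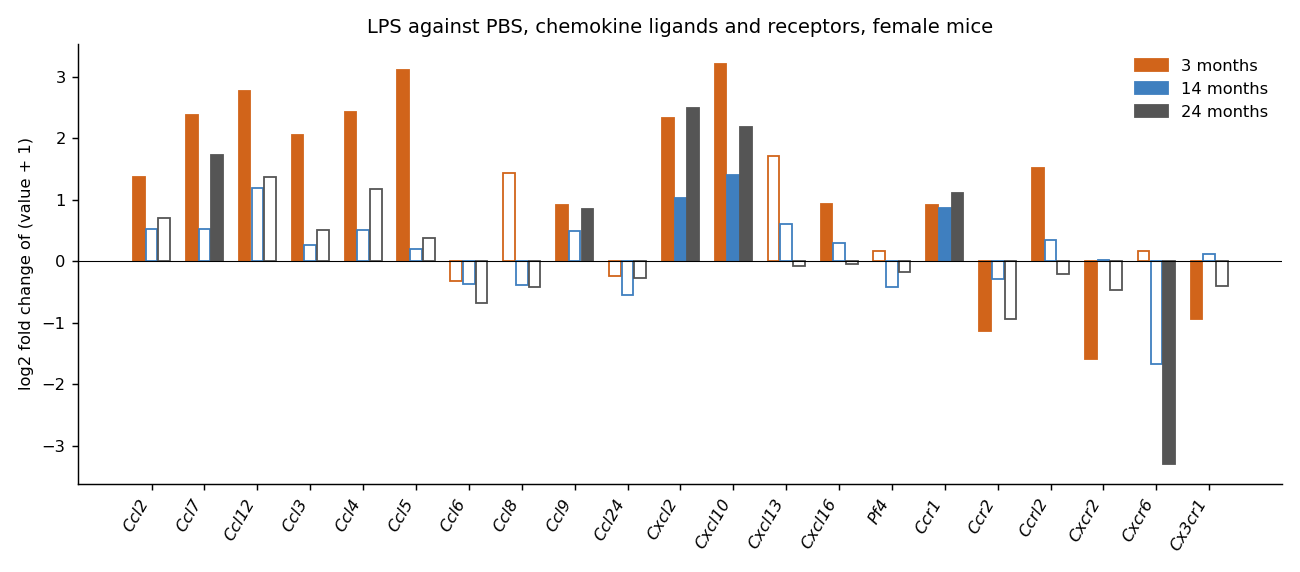
Log2 fold change of value + 1 after LPS against PBS (y axis, bars from 0) for the 3 members and other measured chemokine ligands and receptors (x axis), in females of 3, 14 and 24 months, with filled bars where the gene passed the threshold. Ccl2, Ccl7 and Ccl12 are filled at 3 months, as are Ccl3, Ccl4 and Ccl5, and at 14 months the filled bars are Cxcl2, Cxcl10 and Ccr1.

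Of 58 genes of the pathway that switches these chemokines on, 43 were measured. After LPS at 3 months 20 were higher and 3 lower, with a median of 0.63 beside −0.14 for all genes. Among the genes of LPS sensing Cd14 rose by 1.36, Myd88 by 0.94 and Tirap, a bridging adaptor, by 0.63, 3 of 12 measured. Among the transcription factors Irf7 rose by 1.87 and Cebpd by 1.74, and Atf3, Jun and Fos passed with negative log2 changes of −0.61, −0.88 and −0.60. Of the feedback genes, which limit NF-kB and cytokine signals, 7 of 11 rose, among them Socs3 by 2.43, Tnfaip3 by 1.49, Tnip1 by 1.40 and Nfkbib by 1.21. The 3 measured cytokines that also induce these chemokines rose, Il1b by 2.37, Il1a by 1.77 and Tnf by 1.75.

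At 14 months 7 of the 43 were higher and none lower, with a median of 0.49 beside 0.02. They were Relb (1.43), Irf7 (1.16), Il1b (1.04), Tnf (0.92), Nfkbib (0.85), Stat3 (0.80) and Cebpd (0.79). At 24 months 6 were higher and 5 lower, with a median of 0.17 beside −0.15. Il1b (1.83), Socs3 (1.62), Tirap (1.2) and Cebpd (1.11) were among the higher, and Atf3 (−1.62) and Ticam2 (−1.24), an adaptor of the TRIF branch, among the lower. Between 24 and 3 months 3 were higher in females (Tnf by 1.14, Dusp1 by 0.97 and Atf3 by 0.88) and 5 in males (Tnf by 2.24, Il1b by 1.94, Irf7 by 1.73, Tnfaip3 by 1.43 and Nfkbiz by 1.15), and none lower.

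The genes whose levels were most like those of each member are given as a description, over libraries that share their processing and groups. Over the 53 PBS libraries Ccl2 was most like Ccl7 (r = 0.88), followed by Snx2 (0.66), Sfpq (0.59), Plk2 (0.58) and Gbp7 (0.57). Ccl7 was most like Ccl2, followed by Gbp7 (0.71), Snx2 (0.68), Ccl12 (0.63) and Ms4a4a (0.62). The pair of Ccl2 and Ccl7 thus stood first for each other among all genes. Ccl12 was most like Cd14 (0.79), the LPS co-receptor, followed by Ms4a6c (0.74), Ms4a6d (0.66), Plk2 (0.65) and Ifi204 (0.65), an interferon-induced gene, and Ccl7 and Ccl2 took places 9 and 18. Over all 64 libraries the leading genes were Ccl7 for Ccl2 (0.88), Ccl2 for Ccl7 and Cd14 for Ccl12 (0.82). The others of the first 5 were Snx2 (0.67), Gbp7 (0.62), Ccl12 (0.61) and Cd14 (0.59) for Ccl2, and Gbp7 (0.72), Clec4n (0.66), Ccl12 (0.66) and Snx2 (0.65) for Ccl7. For Ccl12 they were Ms4a6c (0.74), Ms4a6d (0.71), Ifi204 (0.70) and Ms4a4c (0.69).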

How the data were processed

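Libraries came from sorted microglia by oligo-dT priming, template switching and amplification. The authors filtered the reads with SOAPnuke, and their notes name RSEM 1.2.12, Bowtie2 2.2.5, HISAT2 2.0.4 and mm10. FPKM were adjusted for batches with ComBat_seq, and genes with an average under 10 were removed. The deposited values are therefore scores, adjusted FPKM rounded to whole numbers except for 297, and not counts, so that limma took the place of the count test of the study. The depth is unknown, and no counting interval was computed. A fold on the log2(value + 1) scale understates changes of low genes.

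Groups followed the titles. limma 3.58.1 (R 4.3.3, statmod 1.5.0) was fitted to log2(value + 1) with trended, moderated variances, in 4 fits over the 6 groups of the LPS experiment, the 7 female and the 7 male PBS groups, and the 12 PBS groups of shared ages. p-values were two-sided and adjusted over 5647 genes. Calls needed a fold over 1.5 and an adjusted p under 0.05 by Benjamini-Hochberg. Relations were tested with 100000 two-sided permutations in Python 3.11.15 (numpy 2.4.6, pandas 2.3.3, SciPy 1.17.1, matplotlib 3.10.9). The 3 genes and the lists were chosen with earlier results of these data known. Genes named are the 3 members, Ccr1 and Ccr2, up to 4 passing members of each list with the largest change and the 5 genes most like each member, and others were named after their values were seen. An item withheld from the text is not reported here. Methods were tested on simulated data. Libraries of equal replicate number were not treated as paired. Alternatives covered a minimum mean of 50, pseudocounts of 5 and 0.5, other scalings and variance models, unadjusted p, fewer groups, replicate blocks, libraries by the split described and leaving out each library.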

Additional observations from a re-analysis of the deposited data

Results flagged for a closer look

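In 33 sets of values (3 genes in 11 groups of at least 4 mice) 5 held 1 mouse far from the others of its group. They were found with Dixon's outlier rule, which assumes normally distributed values, on values that were not log-transformed. How many chance gives here is not known, since the 3 genes of a mouse also share 1 library. The 14-month female given PBS as replicate 3 stood above her group in all 3 genes, with 214 adjusted FPKM for Ccl2 beside 123 to 144 in the other 4 mice, 294 for Ccl7 beside 69 to 131, and 2500 for Ccl12 beside 73 to 532. The 12-month female of replicate 2 had 594 for Ccl12 beside 63 to 130. The 16-month female of replicate 1 had 124 for Ccl7 beside 87 to 90.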

How the results depend on the processing

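Of 2085 values of the 3 genes under an alternative, 1926 kept direction and call, 28 lost the call, 73 gained one and 58 turned direction, the last all in results that passed under neither setting. Adjusted p-values are those of limma, and the causes of the changes were not tested. With an unadjusted p under 0.05 calls were gained for Ccl12 after LPS at 14 months (1.19) and 24 months (1.38), Ccl2 after LPS at 24 months (0.71), the response at 14 minus 3 months of Ccl7 (−1.86) and Ccl2 (−0.84), that at 24 minus 14 months of Ccl7 (1.21), Ccl7 in males at 24 against 3 months (−1.63), the sex difference at 3 months of Ccl12 (1.68) and Ccl2 (1.35), its change to 24 months for Ccl7 (−1.92) and Ccl2 (−1.03), and the F-tests over age of Ccl12 in females (adjusted p = 0.107) and Ccl7 in males (adjusted p = 0.0751).

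Fitting only the groups compared gained Ccl12 after LPS at 24 months (1.38), its response at 24 minus 3 months (−1.39), Ccl12 in females at 24 against 3 months (0.91), Ccl7 in males at 24 against 3 months (−1.63), and the sex differences of Ccl12 (1.68) and Ccl2 (1.35) at 3 months. Equal totals gained Ccl2 after LPS at 24 months (0.87), the response of Ccl7 at 14 minus 3 months (−2.01), the sex difference of Ccl2 (1.49), the male F-test of Ccl7 (adjusted p = 0.0454) and the male age relations of Ccl2 (r = −0.46) and Ccl7 (r = −0.49). Median-ratio scaling gained the sex difference of Ccl2 (1.51). A minimum mean of 50 gained it too (1.35), and the response of Ccl7 at 14 minus 3 months (−1.86). The male F-test of Ccl12 lost its call with robust moderation (adjusted p = 0.076) and in the 16 males without values between 0 and 1 (adjusted p = 0.300).

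Residuals of libraries with the same replicate number had a median correlation of 0.014 in the LPS groups, 4.3e-05 in females and −0.0044 in males. Single pairs ran from −0.19 to 0.21 in the LPS groups, −0.25 to 0.22 in females and −0.32 to 0.40 in males. Medians of this size do not show pairing by these numbers and cannot exclude it. A replicate block gained Ccl7 in males at 24 against 3 months (−1.63) and its F-test (adjusted p = 0.00554). A replicate block by the number in the description gained the same 2 results (−1.63 and adjusted p = 0.0295) and the sex difference of Ccl2 (1.35), and lost Ccl7 in females at 6 against 3 months (adjusted p = 0.0858) and Ccl12 at 16 against 3 months (adjusted p = 0.0523).

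Directions turned in females for Ccl7 at 12 against 3 months with equal totals (0.063), median-ratio scaling (0.087) and the block by the description (0.025), and for Ccl7 at 16 against 9 months under the same settings (−0.081, −0.0037 and −0.29). They turned for Ccl2 in females at 9 against 3 months with the replicate block (−0.057) and the block by the description (−0.0086), and at 12 against 9 months with median-ratio scaling (0.017) and both blocks (0.062 and 0.21). The block by the description also turned Ccl7 in males at 6 against 3 months (0.050) and the sex difference at 9 months of Ccl7 (−0.060) and Ccl12 (−0.33). Ccl12 in males turned at 12 against 3 months with the replicate block (0.23), and at 12 (0.53) and 24 (0.32) against 3 months in libraries without values between 0 and 1, and its relation with age (r = −0.11) in those with such values. The age relation of Ccl7 in females was 0.0080 without 2 of the oldest mice.

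Single mice left out turned the response at 24 minus 14 months of Ccl12 (−0.51 to 0.75) and Ccl2 (−0.071 to 0.32), and the LPS-treated difference at 14 against 3 months of Ccl12 (−0.023 to 0.38) and Ccl2 (−0.25 to 0.14). In females they turned Ccl2 at 9 against 3 months (−0.14 to 0.18), at 12 against 3 months Ccl7 (−0.28 to 0.05), Ccl12 (−0.15 to 0.92) and Ccl2 (−0.15 to 0.18), at 12 against 9 months Ccl12 (−0.73 to 0.49) and Ccl2 (−0.18 to 0.17), and Ccl7 at 16 against 9 months (−0.22 to 0.20). In males they turned at 6 against 3 months Ccl7 (−0.28 to 0.26) and Ccl2 (−0.080 to 0.40), Ccl12 at 12 (−0.66 to 0.35) and 24 (−0.83 to 0.06) against 3 months, and at 16 against 9 months Ccl7 (−0.74 to 0.23) and Ccl2 (−0.57 to 0.079). The sex difference of Ccl2 at 6 months ran from −0.25 to 0.71.

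Leaving out 1 mouse at a time gave 0.62 to 1.89 for Ccl12 and 0.38 to 0.78 for Ccl2 after LPS at 14 months. The sex difference at 3 months ran from 1.30 to 2.14 for Ccl12 and 1.06 to 1.55 for Ccl2, and each passed without male replicate 1 (2.14, adjusted p = 0.047, and 1.55, adjusted p = 0.0414). Adjusted p of the F-tests ran from 0.0282 to 0.179 for Ccl12 and 0.00759 to 0.0519 for Ccl2 in females, where Ccl2 lost its call without the 6-month replicate 2 and Ccl12 gained one without the 12-month replicate 2 or the 14-month replicate 1 or 3. In males they ran from 0.00649 to 0.133 for Ccl7, called without the 9-month replicate 1 or 3 or the 19-month replicate 5, and 0.00649 to 0.0774 for Ccl12, lost without the 9-month replicate 1 or 4 or the 19-month replicate 2, 3 or 4. With equal totals 46 genes in place of 79 were higher after LPS at 14 months, with 4 pathway genes in place of 7 and 2 of the chemokine system in place of 4. At 3 months 144 genes in place of 287 were lower, with 1 pathway gene in place of 3, and at 24 months 10 pathway genes in place of 6 were higher. Between 24 and 3 months 97 genes in place of 154 were higher in males, where 1 gene of the chemokine system was lower, and 1 pathway gene in place of 3 was higher in females. Median-ratio scaling gave 366 higher and 145 lower genes after LPS at 24 months, and 100 higher genes in males. A pseudocount of 5 gave 2 lower chemokine system genes at 24 months in place of 1. Leaving out 1 mouse, 1 to 4 chemokine system and 2 to 10 pathway genes were higher after LPS at 14 months, 2 to 5 and 2 to 11 at 24 months, and 2 to 6 and 0 to 2 in females at 24 against 3 months. The unknown depth limits what low values can show.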
